A study of Mus musculus with 6 samples.

Results

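A set of 10 genes of the interferon-inducing pathway, 8 interferon regulatory factors (Irf1, Irf2, Irf3, Irf4, Irf5, Irf7, Irf8 and Irf9) and the kinases Ikbke and Tbk1, were followed through the immune cells of mouse lung. They were taken by symbol from the 32285 features of the count matrices, and all 10 were found. The series holds 6 single-cell libraries, 3 from normal lung (Ctrl, replicates 1 to 3) and 3 from lung infiltrated by acute myeloid leukaemia (AML, replicates 1 to 3). Lungs were perfused and digested, CD45-positive cells were collected on magnetic beads, and 3′ libraries were made with the 10x Genomics v3.1 kit. Strain, age, the leukaemia model, which cells are leukaemic and whether each library came from its own animal are not given in the sources used here, so every p-value measures the spread between these libraries, which may be technical.

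An infected or stressed cell detects nucleic acid or endotoxin through sensors that recruit the kinases TBK1 and IKKε, the product of Ikbke. These kinases phosphorylate IRF3 and IRF7, which then switch on interferon genes, and secreted interferon acts back through its receptor and IRF9 on genes that include Irf7 itself. IRF1 is an activator of interferon targets and IRF2 competes with it for the same DNA sites, IRF5 acts downstream of Toll-like receptors, and IRF4 and IRF8 shape lymphoid, dendritic and monocyte identity. Nonclassical monocytes, the cells in which most of the changes below were found, patrol the inner wall of blood vessels and are plentiful in lung capillaries.

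After filtering, 69599 cells remained of 73095 barcodes. They fell into 30 clusters, of which 24 were named from marker genes that include no member, giving 15 classes with 86.6% of the cells. Each class is called "like" its type, because the names were rebuilt from markers. Of these classes 14 had at least 20 cells in at least 2 libraries of each group and were tested. Total counts per library were close, from 43913245 to 66513826 unique molecular identifiers (UMIs), but they were spread over very different numbers of cells. The median UMIs per barcode ranged from 1067 in AML 3 to 9381 in AML 1, with normal lung between 2740 and 9354, so values below are sums over all cells of a class, given as CPM, a gene's UMIs scaled to the total UMIs of that class in that library. Pairs of libraries shared between 2 and 118 barcodes, at most 1.13% of the smaller library. The share of cells kept out of named classes by the naming threshold alone, set after the clusters were seen, was 7.63% ± 9.92 (SD, n = 3) in AML and 2.76% ± 2.67 (SD, n = 3) in normal lung.

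The nonclassical monocyte-like class carried the nonclassical markers (Ace, Treml4, Cd300e, Adgre4, Spn, Eno3 and Nr4a1) at a summed 3783 to 4777 CPM in AML and 4172 to 4400 in normal lung. Single markers of this list moved, with 2 of 7 called higher in AML and 1 lower (median log2 change -0.03). Ace was 496, 456 and 434 CPM in AML and 675, 631 and 638 in normal lung. Eno3 was 383, 310 and 244 in AML and 192, 229 and 184 in normal lung. Its cells came from different clusters in the groups. Cluster 0, led by Il10, Eno3, Treml4 and Spic, held mostly AML 1 and AML 2 cells, cluster 1 held mostly AML 3 cells, and cluster 14 held most of the normal cells. Markers of other cell types moved with the group in this class. The 8 interstitial macrophage markers summed to 276 to 683 CPM in the AML libraries and 1319 to 2303 in the normal ones, but of the 3 that passed the count filter 1 was called higher and 1 lower, with a median log2 change of 1.77. The 6 endothelial markers summed to 1211 to 1362 and 234 to 339, and the 1 that was tested was called higher. The cDC2 markers (90.5 to 239 against 20.9 to 32.0) and late neutrophil precursor markers (5.72 to 31.9 against 2.14 to 2.90) each had 1 of 1 tested called higher. Alveolar macrophage markers (80.7 to 207 against 77.6 to 199) had 1 of 2 called higher. The cDC1 markers (198 to 207 against 327 to 378) had 1 of 3 called higher and 1 lower. Neutrophil markers (143 to 473 against 192 to 215) had 1 of 5 called lower and a median of 2.39. Of the 6 classical monocyte markers 1 was called lower, with a median log2 change of 0.12. The part of these lists in the results below was not tested.

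Where the genes lie, and what stands before them, gives the context for the values (GRCm38, GENCODE vM21 for gene spans). Ikbke is at chr1:131254343-131279606 on the minus strand, Tbk1 at chr10:121546455-121586787 on the minus strand, Irf3 at chr7:44997648-45002848 and Irf7 at chr7:141262706-141266481 on the minus strand. Irf9 lies at chr14:55603571-55610030 and overlaps Rnf31 on the same strand, so reads in the shared part could be assigned to either gene. Irf1 lies at chr11:53770014-53778374, Irf2 at chr8:46739732-46847458, Irf4 at chr13:30749226-30766976 and Irf5 at chr6:29526625-29541871. Irf8 lies at chr8:120736358-120756694 and overlaps Gm20388 on the same strand. The 250 bases before each RefSeq start were searched on both strands for the core of the interferon-stimulated response element, taken as GAAA repeated after 2 bases of any kind, and for the STAT-type gamma-activated site, TTCNNNGAA. All 10 members had a window, 13 windows in all. The first motif was found in 1 member (Irf2) and the second in 3 members (Irf1, Irf2 and Irf8), against 2.98% and 7.02% of all 32841 windows. A match is a run of letters, not a measured binding site. The stretches below, from RefSeq on GRCm38.p6 and written 5′ to 3′ on the gene's strand without transcribed UTR bases, are those of the 2 members that were called higher in AML within a class (Ikbke and Irf7, with no match) and of the 2 members called lower within a class that hold a match (Irf2 and Irf8). Capitals mark the matches, in Irf2 first the response element core and then TTCNNNGAA, and in Irf8 TTCNNNGAA at both places.
Ikbke, chr1:131279607-131279813, minus strand: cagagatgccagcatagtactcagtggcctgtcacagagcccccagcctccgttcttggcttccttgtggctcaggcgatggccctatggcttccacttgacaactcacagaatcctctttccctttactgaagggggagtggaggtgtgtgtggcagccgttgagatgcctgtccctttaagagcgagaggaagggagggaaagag
Irf7, chr7:141266482-141266674, minus strand: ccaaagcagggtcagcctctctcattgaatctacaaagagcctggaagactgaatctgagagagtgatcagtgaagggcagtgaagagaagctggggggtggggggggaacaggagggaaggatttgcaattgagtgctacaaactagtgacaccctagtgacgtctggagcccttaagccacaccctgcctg
Irf2, chr8:46739495-46739731, plus strand: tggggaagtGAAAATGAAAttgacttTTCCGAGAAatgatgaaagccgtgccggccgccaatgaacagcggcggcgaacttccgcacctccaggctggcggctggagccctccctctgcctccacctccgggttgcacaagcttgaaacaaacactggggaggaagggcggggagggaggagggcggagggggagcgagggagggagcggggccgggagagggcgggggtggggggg
Irf8, chr8:120736108-120736357, plus strand: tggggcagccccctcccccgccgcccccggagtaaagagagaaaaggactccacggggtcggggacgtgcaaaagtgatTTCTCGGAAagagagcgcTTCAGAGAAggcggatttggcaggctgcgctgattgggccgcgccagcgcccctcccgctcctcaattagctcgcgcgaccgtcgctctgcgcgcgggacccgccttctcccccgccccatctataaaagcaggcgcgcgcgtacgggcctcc

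Ikbke, the inducible kinase of the pair, showed the largest called change of any member. In nonclassical monocyte-like cells its level was 186, 114 and 89.8 CPM in AML 1 to 3 and 12.7, 9.53 and 8.31 CPM in normal lung 1 to 3. Every AML library stood far above every normal library, and the AML libraries differed among themselves. The change on the log2 scale was 3.72 (SE 0.29, n = 3 and 3, adjusted p = 0.00087 by edgeR's quasi-likelihood test with Benjamini-Hochberg adjustment over all genes of the class). It rested on 8449 Ikbke UMIs in AML and 132 in normal lung. The AML level was also high within the cluster that held most normal cells: in cluster 14, the normal libraries had 11.9, 9.06 and 7.86 CPM, AML 1 had 57.5 and AML 3 had 72.0, while AML 2 had too few cells there.

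**Figure D1:**
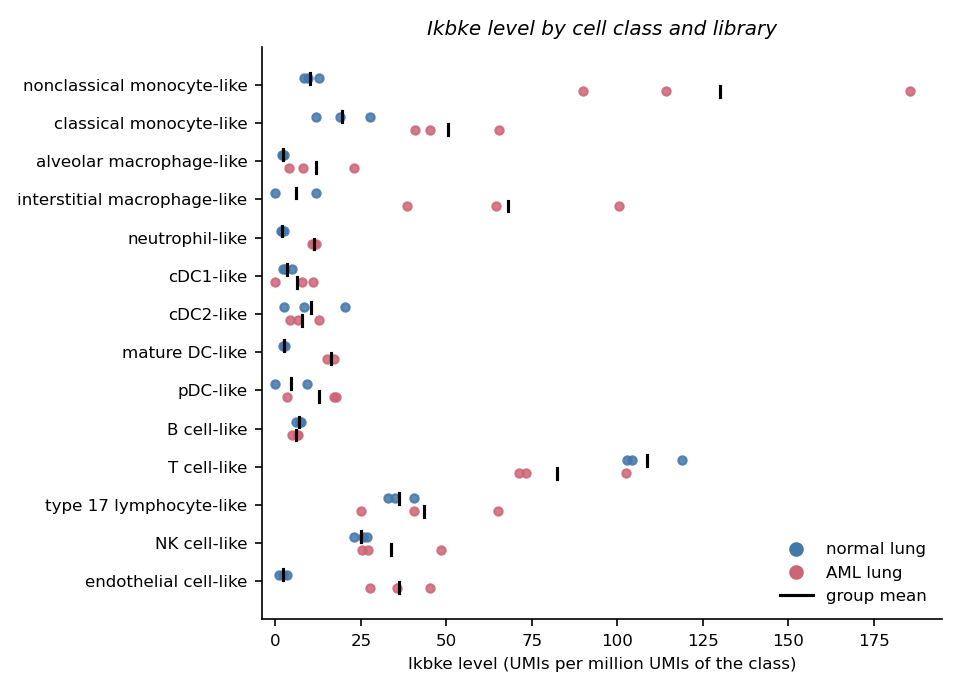
Ikbke level in each cell class (x axis, CPM), 1 dot per library with at least 20 cells, blue for normal lung and red for AML lung, with the group mean as a bar. Nonclassical monocyte-like cells held 89.8 to 186 in AML and 8.31 to 12.7 in normal lung, and T cell-like cells were high in both groups.

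The share of nonclassical monocyte-like cells with an Ikbke UMI was compared after each cell had been thinned to 1000 UMIs. It was 16.6%, 10.6% and 8.95% in AML 1 to 3 and 1.37%, 0.615% and 0.881% in normal lung 1 to 3. The groups did not overlap (means 12.0% ± 4.02 and 0.955% ± 0.383, SD, n = 3 and 3), and an exact permutation test, two-sided, returned p = 0.1, the smallest value that 20 arrangements allow. Thinning left out 7, 400 and 3230 AML cells and 1, 4 and 133 normal cells that were too shallow. Without thinning the shares were 69.8%, 38.7% and 8.95% in AML and 9.84%, 5.66% and 3.45% in normal lung, and they followed the median UMIs of the cells (10182, 5014 and 874 in AML, 9950, 6626 and 3878 in normal lung). B cell-like cells, the class with the lowest Ikbke level in AML, had 0.448% ± 0.215 in AML and 0.571% ± 0.175 in normal lung (SD, n = 3 and 3) after thinning. Their median UMIs were 6477, 3526 and 1098 in AML and 7127, 4387 and 3203 in normal lung. B cell-like cells were picked by their AML level in these data, so their low AML share follows from the choice. In normal lung their Ikbke level (6.86 CPM) was above that of alveolar macrophage-like (2.25), endothelial cell-like (2.21) and neutrophil-like cells (1.98).

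Classical monocyte-like cells showed a smaller change. Ikbke was 65.5, 40.8 and 45.2 CPM in AML 1 to 3 and 27.6, 18.8 and 11.8 in normal lung, without overlap. The log2 change was 1.37 (SE 0.28, adjusted p = 0.0433 in edgeR). Leaving out any 1 normal library or AML 1 ended this call (adjusted p 0.0915 to 0.168), and it was also lost when each cell was named by its own markers alone (log2 change 0.72, adjusted p = 0.186). In cluster 12, which both groups filled, the level was 64.3, 40.0 and 38.3 in AML and 28.1, 18.2 and 11.3 in normal lung. In the classical class 3 of 7 nonclassical markers were called higher. So were 2 of 4 tested neutrophil markers (sums of 302 to 1192 CPM in AML and 151 to 206 in normal lung), 1 of 3 of late neutrophil precursors (127 to 223 and 40.4 to 71.5) and 2 of 2 of immature myeloid cells (74.5 to 184 and 14.9 to 16.9). The same held for 3 of 4 cycling genes (28.0 to 96.7 and 11.9 to 20.8) and 1 of 1 endothelial marker (96.04 to 230 and 16.2 to 31.9). Their part in the result was not tested.

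In neutrophil-like cells Ikbke was low in both groups. AML libraries held 11.7, 10.7 and 11.3 CPM and normal libraries 1.86, 2.47 and 1.61, again without overlap. The log2 change was 2.53 (SE 0.40, adjusted p = 0.0145 in edgeR) and rested on 52 and 11 UMIs. The call ended without any 1 library other than AML 3 (adjusted p 0.0511 to 0.134) and when naming went cell by cell from markers (adjusted p = 0.133). Nonclassical markers in this class summed to 691 to 757 CPM in AML and 437 to 495 in normal lung. Most of these sums was Nr4a1, at 558, 629 and 411 in AML and 381, 413 and 366 in normal lung. Per 100 UMIs of Treml4, Cd300e and Adgre4 there were 12.05, 13.19 and 5.2 Ikbke UMIs in AML. In normal lung there were 3.52, 4.12 and 2.63, and in the nonclassical class of AML 7.32, 5.31 and 4.49. The part of these markers in the Ikbke value was not tested.

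Other classes had large Ikbke differences that were not called. Endothelial cell-like cells, present in spite of the CD45 selection, had 45.3, 35.6 and 27.6 CPM in AML and 1.03, 3.42 and 2.17 in normal lung (log2 change 3.75, SE 0.44, adjusted p = 0.0751 in edgeR, 78 and 11 UMIs). The AML 1 to 3 values rested on 8, 15 and 55 Ikbke UMIs in 20, 71 and 1087 of these cells. The nonclassical markers Treml4, Cd300e and Adgre4 were also present there in AML, and Ikbke UMIs numbered 5.59, 9.87 and 6.95 per 100 UMIs of these 3 markers, beside 7.32, 5.31 and 4.49 in the nonclassical class itself. What these markers contribute was not tested. In interstitial macrophage-like cells AML libraries had 100.5, 64.6 and 38.6 CPM, while the 2 normal libraries with enough cells had 2 Ikbke UMIs in all (log2 change 3.52, SE 0.90, adjusted p = 0.132). The corresponding ratio to the 3 markers was 6.11, 5.94 and 4.39 in those AML libraries. In alveolar macrophage-like cells Ikbke was 4.06, 8.06 and 23.1 in AML and 2.25, 1.98 and 2.52 in normal lung (log2 change 2.43, SE 0.62, adjusted p = 0.455). AML 3 was the high library there. It also had the most Adgre4 in this class, 219 CPM against 1.88 to 74.8 in the other libraries. Ikbke UMIs per 100 UMIs of the 3 markers were 11.6, 6.13 and 6.76 in AML and 9.53, 9.30 and 6.52 in normal lung, and the part of these markers was not tested.

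T cell-like cells were rich in Ikbke in both groups. They had the highest Ikbke level of any class in normal lung, at 119, 104 and 103 CPM, clear of type 17 lymphocyte-like cells (36.2 ± 3.84, SD, n = 3) and NK cell-like cells (25.1 ± 1.93, SD, n = 3), which followed in that order. In AML the T cell-like level was 102, 73.2 and 71.2, every library below the normal ones, with a log2 change of -0.36 (SE 0.17, adjusted p = 0.537 in edgeR). That ordering was met by 11% of all genes tested in this class. Adgre4 in these cells was 29.1, 99.0 and 394 CPM in AML and 1.61, 4.51 and 74.8 in normal lung. The part of such transcripts in the Ikbke value was not tested. In AML, nonclassical monocyte-like cells came first (130 ± 49.8, SD, n = 3), but their range overlapped that of T cell-like cells (82.3 ± 17.5, SD, n = 3), and below them all neighbours in the order overlapped.

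The cells that held the transcript differed between the groups. Nonclassical monocyte-like cells held 7.81%, 6.73% and 4.10% of all Ikbke UMIs in normal lung 1 to 3, where they were 10.6%, 12.4% and 9.73% of the cells. They held 85.8%, 75.5% and 25.5% in AML 1 to 3, where they were 51.1%, 42.0% and 15.4% of the cells. T cell-like cells held 45.2%, 54.1% and 63.6% in normal lung and 6.12%, 8.85% and 11.3% in AML. AML 3 stood between normal lung and the other AML libraries.

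**Figure D2:**
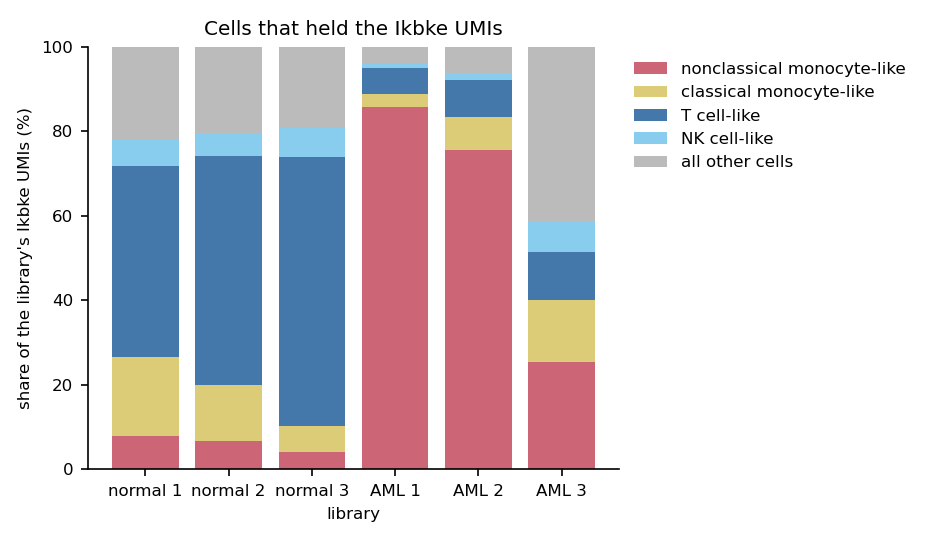
Share of each library's Ikbke UMIs (y axis, percent) held by nonclassical monocyte-like, classical monocyte-like, T cell-like, NK cell-like and all other cells, 1 bar per library. T cell-like cells held most of it in normal lung 2 and 3, and nonclassical monocyte-like cells held 85.8% and 75.5% in AML 1 and AML 2.

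Whether the Ikbke change differed between classes was tested directly, as the change in nonclassical monocyte-like cells minus the change in another class, with the library as a block. The difference on the log2 scale was 2.31 (SE 0.22, adjusted p = 0.00084 in edgeR) against classical monocyte-like cells, where 3.62% of all genes had such a difference. Against B cell-like cells it was 4.12 (SE 0.29, adjusted p = 2.0e-05), with 2.63% of genes called. Against T cell-like cells it was 4.10 (SE 0.20, adjusted p = 0.0031), with 0.0251% called, and against type 17 lymphocyte-like cells 3.54 (SE 0.48, adjusted p = 0.0105), with 0.0842% called. No difference was called against endothelial cell-like (-0.11, SE 0.43, adjusted p = 0.966), interstitial macrophage-like (0.21, SE 1.07, adjusted p = 0.978), neutrophil-like (1.13, SE 0.50, adjusted p = 0.360) or alveolar macrophage-like cells (1.37, SE 0.88, adjusted p = 0.426). A p above the threshold does not show that these changes were equal. The same shares of genes were 0.522%, 0.818%, 1.13% and 1.13% in these 4 comparisons. Against cDC2-like cells the difference was 3.93 (SE 0.77, adjusted p = 0.0717) and against NK cell-like cells 3.19 (SE 0.52, adjusted p = 0.165). Leaving out any 1 normal library ended the call against T cell-like cells (adjusted p 0.0509 to 0.0981 in edgeR), leaving out normal lung 3 that against type 17 lymphocyte-like cells (0.0634), and naming cells by their own markers that against B cell-like cells (0.383). The shares of genes called were 0.251% and 0.0175% there, 0.51% against cDC1-like, 0% against mature DC-like and 0.0175% against pDC-like cells.

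Tbk1, the constitutive partner kinase, did not follow Ikbke. In nonclassical monocyte-like cells it was 106, 107 and 96.6 CPM in AML and 94.9, 85 and 94.5 in normal lung. Every AML library was above every normal one, but by little, and the log2 change of 0.22 (SE 0.11, adjusted p = 0.249 in edgeR) was not called. Over the 14 classes tested, none of its changes was called by edgeR, none had an unadjusted p under 0.05, and they ran from -0.46 in cDC2-like to 0.51 in interstitial macrophage-like cells.

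Irf7, the inducible substrate of these kinases, was called in neutrophil-like cells. Its level there was 97.4, 79.0 and 94.4 CPM in AML and 46.0, 45.1 and 33.1 in normal lung. The groups were well apart, with a log2 change of 1.18 (SE 0.19, adjusted p = 0.0154 in edgeR). The call ended without any 1 normal library or AML 1 (adjusted p 0.0613 to 0.0983) and when naming went cell by cell from markers (log2 change 0.80, adjusted p = 0.192). In the neutrophil-like class 3 of the 5 tested markers of late neutrophil precursors were called higher in AML, with sums of 1663 to 2393 against 633 to 898 CPM. Their part in the Irf7 value was not tested.

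Elsewhere Irf7 had positive estimates that did not pass the test. Its log2 change was above 0 in all 13 classes where it was tested, from 0.33 in classical monocyte-like to 1.94 in alveolar macrophage-like cells, and in 8 of 14 classes every AML library was above every normal one. Over all genes, that ordering was met by 4.8% (type 17 lymphocyte-like) to 19% (interstitial macrophage-like). The classes come from the same 6 libraries, so they are not independent. The nonclassical marker Adgre4 was 555, 242 and 257 in AML and 1.03, 49.3 and 76.7 in normal lung in endothelial cell-like cells. It was also higher in every AML library in B cell-like and cDC2-like cells, and the groups overlapped in the other classes. The part of monocyte transcripts in the Irf7 values was not tested. In B cell-like cells Irf7 was 24.6, 19.8 and 18.8 in AML and 5.55, 10.3 and 4.03 in normal lung (log2 change 1.68, SE 0.32, adjusted p = 0.115). In nonclassical monocyte-like cells it was 50.4, 75.1 and 53.5 in AML and 36.9, 51.8 and 38.9 in normal lung, with overlap (log2 change 0.53, SE 0.19, adjusted p = 0.132). The pDC-like class, whose real counterpart is the body's main source of type I interferon, was among the 2 highest in both groups, with 244, 185 and 132 in AML and 103 and 99.1 in the 2 normal libraries that could be used (log2 change 0.88, SE 0.30, adjusted p = 0.638).

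**Figure D3:**
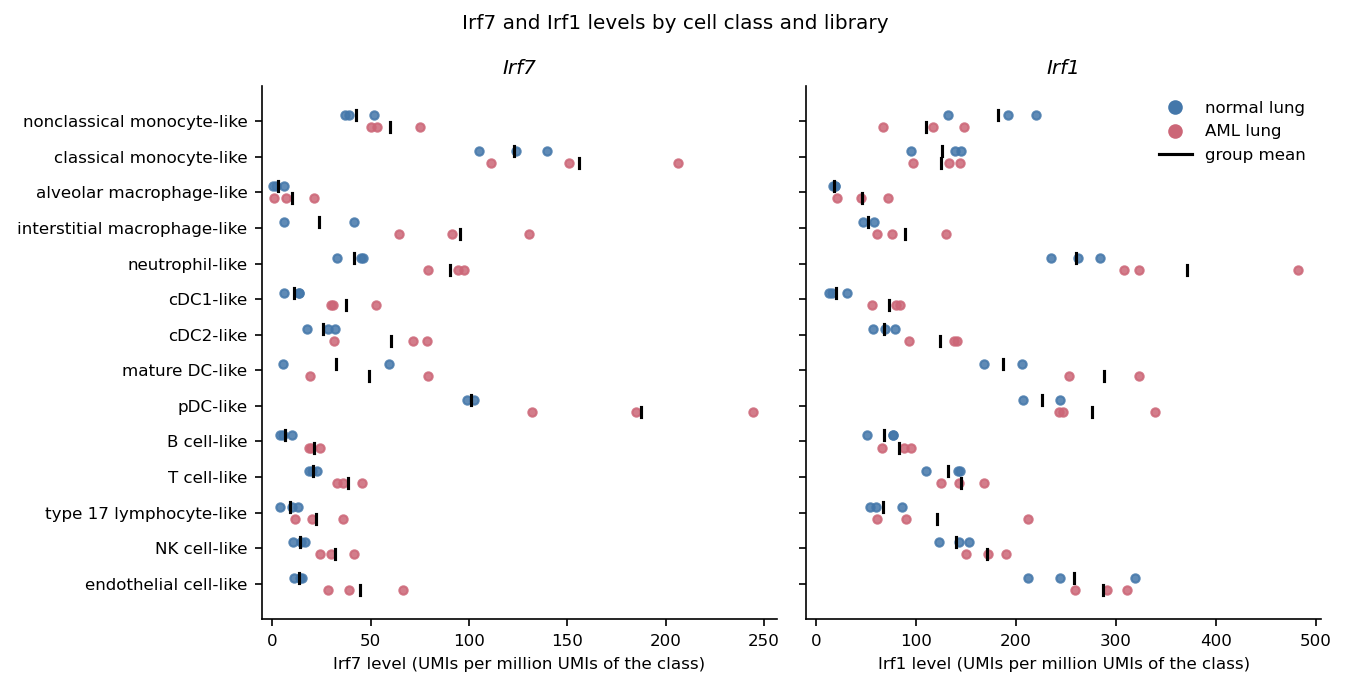
Irf7 (left) and Irf1 (right) levels in each cell class (x axes, CPM), 1 dot per library, blue for normal lung and red for AML lung, with group means as bars. For Irf7 the AML mean lay to the right in each class, and for Irf1 nonclassical monocyte-like cells were the class in which the AML mean lay clearly to the left (110 against 182).

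Irf3, the constitutive substrate, was not called in any class. In nonclassical monocyte-like cells it was 28.7, 19.97 and 24.8 CPM in AML and 25.4, 29.0 and 30.6 in normal lung, with overlap. Its log2 changes ran from -0.27 to 0.62 over 13 classes, with 0 at an unadjusted p under 0.05 in edgeR. Irf9, a DNA-binding factor that acts downstream of the interferon receptor, was not called in any class either, with changes from -0.20 to 0.70 and 3 of 13 classes at an unadjusted p under 0.05. It was 40.8, 47.9 and 41.7 in AML and 49.3, 49.7 and 54.8 in normal lung in nonclassical monocyte-like cells, where every AML library was lower (log2 change -0.20, SE 0.12, adjusted p = 0.357 in edgeR).

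The factors Irf4, Irf8, Irf5 and Irf2 fell in nonclassical monocyte-like cells. Irf4 was the scarcest, at 0.727, 0.861 and 1.35 CPM in AML and 4.48, 3.11 and 3.56 in normal lung. Its log2 change was -1.99 (SE 0.38, adjusted p = 0.0198 in edgeR), from 51 and 48 UMIs. Irf8, which directs monocyte and dendritic cell development, was 58.2, 68.3 and 57.2 in AML and 88.2, 112 and 98.0 in normal lung. Its log2 change was -0.66 (SE 0.14, adjusted p = 0.0256). Irf5 was 149, 143 and 133 in AML and 195, 226 and 208 in normal lung, a log2 change of -0.52 (SE 0.11, adjusted p = 0.0296). Irf2, the repressor, was 310, 262 and 362 in AML and 488, 493 and 476 in normal lung, a log2 change of -0.60 (SE 0.14, adjusted p = 0.0379). For all 4, each AML library was below each normal library, an ordering that 18% of all genes tested in this class also had. AML and normal cells of this class came mostly from different clusters, and the part of this in the falls was not tested. Leaving out any 1 normal library or AML 1 ended all 4 calls (adjusted p 0.0537 to 0.141). Leaving out AML 2 ended that of Irf2 (0.0510). Naming cells by their own markers ended those of Irf2 (0.0560), Irf4 (0.136) and Irf5 (0.0616).

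**Figure D4:**
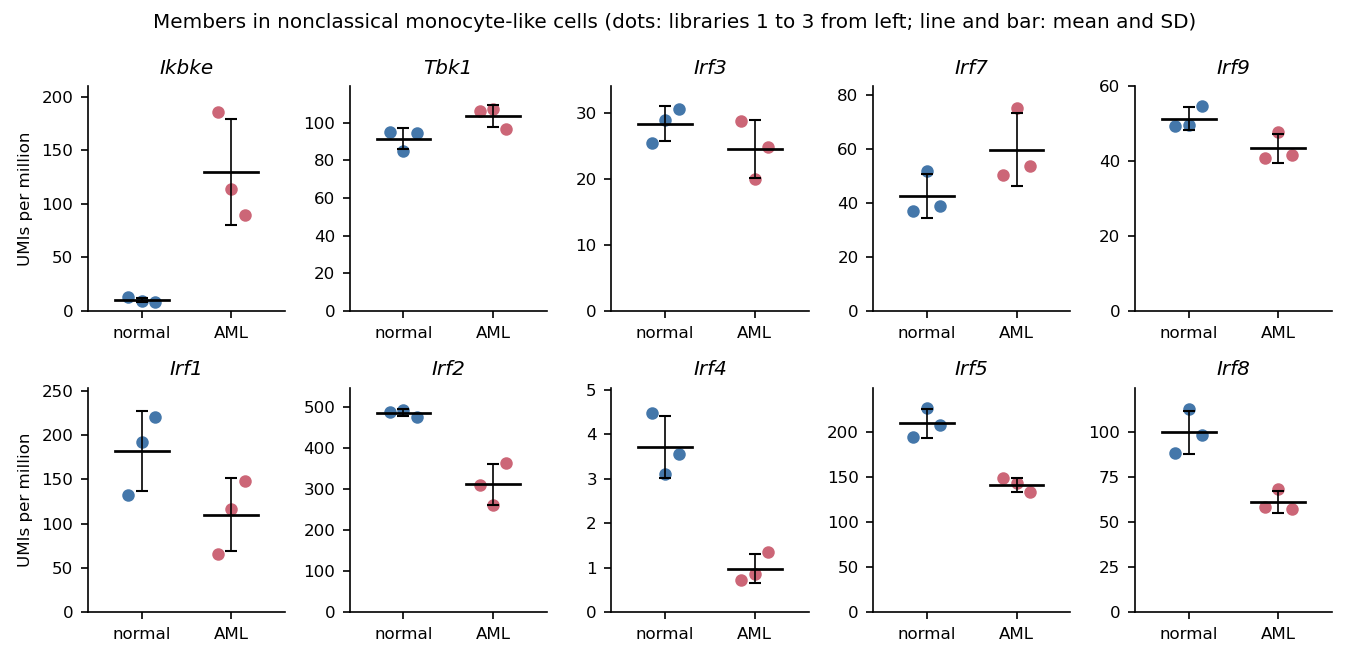
Level of each of the 10 genes in nonclassical monocyte-like cells (y axes, CPM, each from 0), with libraries 1 to 3 as dots from left to right, the group mean as a line and the SD as a bar. Ikbke is 89.8 to 186 in AML against 8.31 to 12.7 in normal lung, and Irf2, Irf4, Irf5 and Irf8 lie lower in all 3 AML libraries.

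Irf1, the interferon-gamma responsive activator, had 66.4, 116 and 148 CPM in AML and 132, 192 and 221 in normal lung in the same cells. The groups overlapped, and the log2 change of -0.69 (SE 0.29, adjusted p = 0.186 in edgeR) was not called. In both groups the library with the most UMIs per cell was the lowest and that with the fewest was the highest, and the part of depth was not tested. In most other classes the estimate was above 0: over 14 classes it was positive in 12, up to 1.86 in cDC1-like cells, where AML libraries had 83.8, 79.4 and 55.3 and normal libraries 30.9, 16.0 and 12.4 (SE 0.34, adjusted p = 0.155). The test of the difference between classes called Irf1 in 5 of 13 comparisons. The change in nonclassical monocyte-like cells was lower by 0.68 than in classical monocyte-like cells (SE 0.15, adjusted p = 0.0333), which had 97.1, 144 and 133 in AML and 95.1, 139 and 145 in normal lung. Against alveolar macrophage-like cells, with 20.3, 44.5 and 71.5 in AML and 17.2, 18.9 and 18.3 in normal lung, the difference was -1.86 (SE 0.23, adjusted p = 0.0281). In this class neutrophil markers summed to 95.3 to 4268 in AML and 82.1 to 261 in normal lung (median log2 change 3.26), and late neutrophil precursor markers to 23.3 to 134 and 11.0 to 18.9 (5.76). Classical monocyte markers summed to 363 to 717 and 466 to 795, with a median of 2.87, and none of these genes was called by edgeR (the class had 1282 of 12153 genes at an unadjusted p under 0.05). Irf1 had its highest mean in neutrophil-like cells in both groups (371 ± 96.3 in AML and 261 ± 24.5 in normal lung, SD, n = 3 and 3). Their range overlapped that of mature DC-like cells in AML (288 ± 49.7, SD, n = 2) and endothelial cell-like cells in normal lung (258 ± 55.2, SD, n = 3). The part of the neutrophil, precursor and monocyte markers in the Irf1 values was not tested. The differences were -1.70 against interstitial macrophage-like cells (SE 0.36, adjusted p = 0.0319, 5 libraries), -1.60 against cDC2-like cells (SE 0.25, adjusted p = 0.0244) and -1.09 against B cell-like cells (SE 0.17, adjusted p = 0.0051). B cell-like cells also differed for Irf4 (-1.76, adjusted p = 0.0091), Irf5 (-0.70, adjusted p = 0.0213) and Irf8 (-0.68, adjusted p = 0.0174). In all, 12 of 130 pairs of member and class were called, where 0% (mature DC-like) to 3.62% (classical monocyte-like) of all genes were. Many of these calls ended when 1 library was left out. The Irf1 difference from classical monocyte-like cells ended without any 1 library other than AML 3 (adjusted p 0.0636 to 0.139 in edgeR), that from alveolar macrophage-like cells without any normal library or AML 2 (0.107 to 0.161), that from interstitial macrophage-like cells without normal lung 3 or any AML library (0.0916 to 0.250) and that from cDC2-like cells without normal lung 2, normal lung 3 or AML 2 (0.0852 to 0.146). The difference from B cell-like cells was kept for Irf1 without any 1 library. It ended for Irf4 without normal lung 1 (0.0531), and for Irf5 (0.0648 to 0.139) and Irf8 (0.0526 to 0.120) without any 1 library other than AML 3. A stricter cell filter also ended that of Irf8 (0.0642). With cells named by their own markers the 7 of these Irf differences that could be tested again were all lost (adjusted p 0.0555 to 0.647).

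Outside nonclassical cells, Irf4 was called lower in classical monocyte-like cells as well. It was 8.38, 5.75 and 5.50 CPM in AML and 17.3, 11.4 and 16.3 in normal lung, without overlap, a log2 change of -1.24 (SE 0.25, adjusted p = 0.0401 in edgeR). The call ended without any 1 library other than AML 3 (adjusted p 0.0530 to 0.192) and when naming went cell by cell from markers (0.0721). The marker lists that were called higher in this class beside Ikbke also moved with this value. Of 3 tested cDC2 markers 1 was called higher and 1 lower there (median log2 change -0.59). Of 3 tested cDC1 markers 1 was called lower (-0.36). In normal lung Irf4 was 79.0 ± 30.9 CPM (SD, n = 3) in cDC2-like cells. The part of all these lists in the Irf4 value was not tested. The estimate for Irf4 was below 0 in all 10 classes where it was tested, which share their libraries. Irf4 was highest in B cell-like cells, at 95.5, 95 and 81.3 in AML and 115, 108 and 115 in normal lung (log2 change -0.29, SE 0.12, adjusted p = 0.345). Irf2 in classical monocyte-like cells, at 274, 236 and 297 in AML and 405, 406 and 351 in normal lung, just missed the threshold (log2 change -0.52, SE 0.14, adjusted p = 0.0821).

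Irf8 and Irf5 were highest in dendritic classes in both groups. Irf8 led in pDC-like cells, at 2060, 1750 and 1431 CPM in AML and 2120 and 2030 in normal lung, followed by cDC1-like and NK cell-like cells, whose ranges overlapped. In NK cell-like cells AML 2 and AML 3 had 550 and 493 while AML 1 had 999, beside 970, 1001 and 901 in normal lung (log2 change -0.40, SE 0.25, adjusted p = 0.515 in edgeR). Irf5 was highest in cDC1-like cells, at 253, 210 and 260 in AML and 345, 361 and 344 in normal lung (log2 change -0.57, SE 0.18, adjusted p = 0.334). Classical monocyte-like cells came next in AML (213 ± 32.1, SD, n = 3) and overlapped them. In normal lung they had a mean of 253, close to 256 in mature DC-like and 255 in cDC2-like cells. In normal lung, Irf5 was low in T cell-like, NK cell-like and type 17 lymphocyte-like cells (means of 11.8, 6.79 and 4.80) and higher in B cell-like cells (59.4 ± 0.964, SD, n = 3). NK cell-like cells had 8.12, 12.7 and 74.2 in AML 1 to 3 and 3.18, 4.72 and 12.5 in normal lung (log2 change 2.32, SE 0.93, adjusted p = 0.381), with AML 3 far above the rest. Nonclassical markers summed to 421 to 1197 in the AML libraries of this class and 391 to 413 in the normal ones, with none of 4 called, and Adgre4 was 352 in AML 3 against 1.91 to 52.9 in the others. Neutrophil markers summed to 36.5 to 6522 and 43.2 to 335. Their part in the Irf5 value was not tested.

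By class, the nonclassical monocyte-like cells had 1 of the 10 members called higher and 4 called lower, where 4.12% of all 10623 genes tested were called higher and 3.01% lower. Classical monocyte-like cells had 1 of 10 called in each direction, against 1.22% of genes higher and 0.869% lower. In neutrophil-like cells 2 of the 8 tested were called higher and none lower, against 1.13% and 0.289%. Irf4 and Irf8 were too low to be tested there. The members' median log2 change was -0.36 in nonclassical, -0.13 in classical monocyte-like and 0.43 in neutrophil-like cells, beside 0.0064, 0.0094 and 0.014 over all genes.

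In the other 11 classes no member was called by edgeR, and few genes of any kind were. The share of all genes called in either direction was 0.221% in interstitial macrophage-like, 0.0134% in cDC1-like and 0.0275% in cDC2-like cells and 0% in alveolar macrophage-like, mature DC-like, pDC-like, B cell-like, T cell-like, type 17 lymphocyte-like, NK cell-like and endothelial cell-like cells. At an unadjusted p under 0.05, members numbered 4 in NK cell-like cells, 3 each in cDC1-like, cDC2-like and B cell-like cells, 2 each in alveolar and interstitial macrophage-like, pDC-like, T cell-like and endothelial cell-like cells, and 0 in mature DC-like and type 17 lymphocyte-like cells. Over all genes, those at that threshold numbered 1243 of 9751 in NK cell-like, 756 of 7479 in cDC1-like, 715 of 7281 in cDC2-like, 1357 of 10685 in B cell-like, 1282 of 12153 in alveolar and 1088 of 7700 in interstitial macrophage-like cells. They numbered 619 of 8190 in pDC-like, 979 of 10727 in T cell-like, 1577 of 9796 in endothelial cell-like, 215 of 5695 in mature DC-like and 285 of 4662 in type 17 lymphocyte-like cells. DESeq2 called 1 member each in alveolar macrophage-like, cDC1-like and endothelial cell-like cells, where its share over all genes is not given here.

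**Figure D5:**
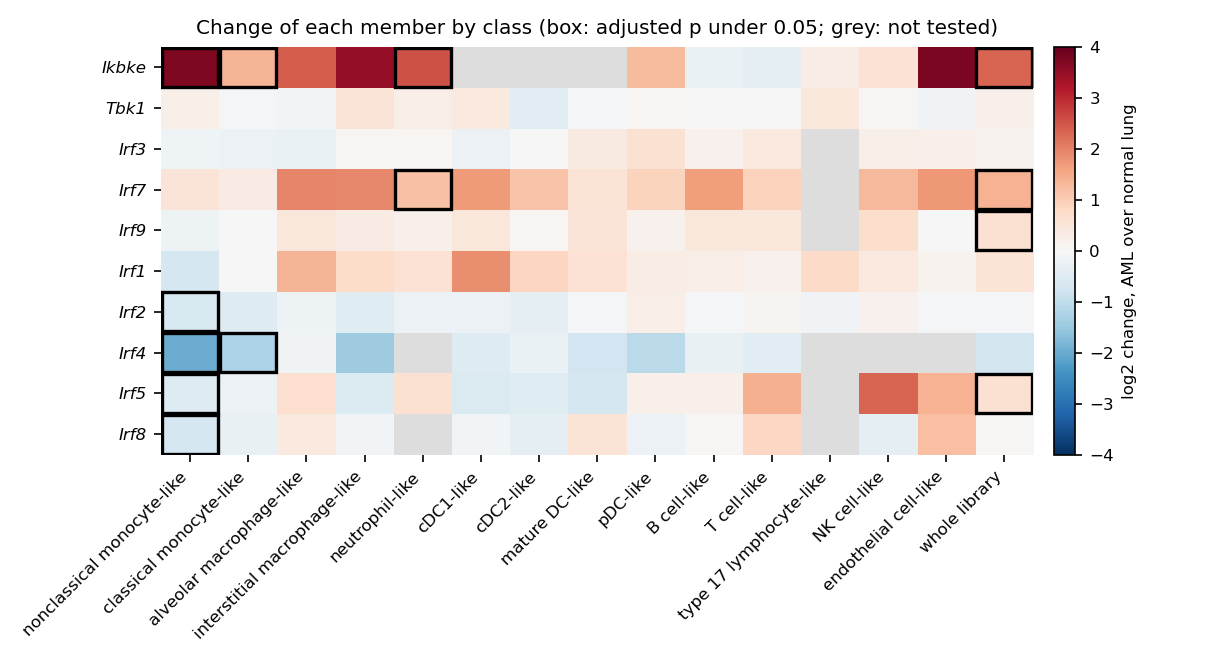
Log2 change, AML over normal lung, of each of the 10 genes (rows) in each of 14 cell classes and in whole libraries (columns), in red where higher and in blue where lower, with a black box where the adjusted p was under 0.05 and grey where the gene was too low to test. Ikbke is boxed in nonclassical and classical monocyte-like and neutrophil-like cells, and the nonclassical column holds the 4 boxed falls of Irf2, Irf4, Irf5 and Irf8.

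Summed over whole libraries, 4 members were called higher and none lower, against 5.94% and 3.43% of 16720 genes. In such sums a change in cell makeup and a change in level per cell cannot be told apart. Irf7 was 54.3, 72.8 and 57.1 CPM in AML and 22.6, 28.4 and 26.7 in normal lung (log2 change 1.38, SE 0.15, adjusted p = 0.0085 in edgeR). Ikbke was 113.5, 70.4 and 43.2 in AML and 13.3, 15.7 and 20.4 in normal lung (log2 change 2.34, SE 0.35, adjusted p = 0.0159). Both groups were apart for each gene. Irf9 (43.7, 50.7 and 45.8 against 32.5, 32.7 and 36.7) rose by 0.59 on the log2 scale (SE 0.10, adjusted p = 0.0247). Irf5 (114, 118 and 103 against 68.3, 82.8 and 91.8) rose by 0.60 (SE 0.12, adjusted p = 0.0350), while it fell within nonclassical monocyte-like cells. With the replicate number as a block the calls of Ikbke (adjusted p = 0.0708), Irf9 (0.0748) and Irf5 (0.0864) ended. Leaving out normal lung 1 or 2 ended all 4 whole-library calls.

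The genes around the members were read from lists of the pathway. Among 17 scaffolds and signalling partners of the kinases, nonclassical monocyte-like cells had 4 called higher and 1 called lower, and the list's median log2 change was -0.05 against 0.0064 for all genes. Tnip1, a ubiquitin-binding brake on NF-κB signalling, rose by 1.57 (SE 0.16, adjusted p = 0.0024 in edgeR). Irak3, an inhibitory kinase-like protein of the Toll-like receptor pathway, rose by 1.23 (SE 0.14, adjusted p = 0.0027). Optn, an adaptor that binds TBK1, rose by 1.36 (SE 0.29, adjusted p = 0.0285) and Tank, a scaffold of both kinases, by 0.55 (SE 0.12, adjusted p = 0.0304). Tbkbp1, another TBK1-binding scaffold, fell by 1.31 (SE 0.18, adjusted p = 0.0058). In neutrophil-like cells 1 of 17 was called, Tank, higher by 1.19 (SE 0.18, adjusted p = 0.0099), and in classical monocyte-like cells none of 17 (4 at an unadjusted p under 0.05).

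Few upstream sensors and adaptors were called. None of the 15 tested was called by edgeR in nonclassical or in classical monocyte-like cells, with median log2 changes of -0.07 and -0.13 and with 3 and 4 genes at an unadjusted p under 0.05. In neutrophil-like cells 1 of 10 was called, Zbp1, a sensor of Z-form nucleic acid, higher by 2.44 (SE 0.26, adjusted p = 0.0034 in edgeR). Of the interferon receptors and their JAK-STAT relay, nonclassical monocyte-like cells had 1 of 15 called higher and 2 called lower (median -0.08). Socs3, a feedback inhibitor of JAK signalling, rose by 1.16 (SE 0.21, adjusted p = 0.0154). Stat4 fell by 1.05 (SE 0.21, adjusted p = 0.0251) and the interferon-gamma receptor chain Ifngr1 by 0.54 (SE 0.12, adjusted p = 0.0285). Socs3 was the 1 of 15 called in classical monocyte-like cells, higher by 1.13 (SE 0.14, adjusted p = 0.0097), and none of 15 was called in neutrophil-like cells (2 at an unadjusted p under 0.05).

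Of the interferon-stimulated targets in neutrophil-like cells, 7 of 21 were called higher and none lower, where 1.13% and 0.289% of all genes were, and the list's median was 0.86 against 0.014 over all genes. Ifit3, an antiviral RNA-binding family member, rose by 2.44 (SE 0.27, adjusted p = 0.0043 in edgeR), Ifit2 by 2.08 (SE 0.32, adjusted p = 0.0111), Ifit3b by 1.93 (SE 0.26, adjusted p = 0.0078) and Ifit1 by 1.54 (SE 0.20, adjusted p = 0.0076). Ifit3 and Ifit3b are near-identical copies whose reads the counting may split. Ifi47 (1.66), Isg15 (1.27) and Isg20 (0.86) were the other 3. When cells were named by their own markers, only 1 gene of any kind was called in neutrophil-like cells. Markers of late neutrophil precursors were also higher in AML in this class, as given beside Irf7. Their part in these values, and in those of Tank and Zbp1 in this class, was not tested. In nonclassical monocyte-like cells 4 of 22 were higher and 1 lower, where 4.12% and 3.01% of all genes were, with a median of 0.18: Ifit3 rose by 2.47 (SE 0.46, adjusted p = 0.0186), Ifit1 by 1.66 (SE 0.35, adjusted p = 0.0284), Oasl1 by 1.59 (SE 0.38, adjusted p = 0.0415) and Isg15 by 0.79 (SE 0.19, adjusted p = 0.0442). Ciita, the class II transactivator that interferon-gamma induces, fell by 2.05 (SE 0.50, adjusted p = 0.0420). In classical monocyte-like cells 1 of 25 was called, Ifit1, higher by 1.04 (SE 0.20, adjusted p = 0.0378). In alveolar macrophage-like cells the median of 21 targets was 0.86 and none was called, with 4 at an unadjusted p under 0.05. No gene of the other 4 lists was called by edgeR in alveolar macrophage-like cells, and none of any list in interstitial macrophage-like cells. At an unadjusted p under 0.05, the scaffold list had 2 of 17 and 3 of 16 in these classes, the sensors 1 of 16 and 1 of 14, the receptors and relay 3 of 14 and 2 of 14, the partners 0 of 16 and 5 of 14, and the targets in interstitial macrophage-like cells 3 of 18.

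Of 16 partner factors and IRF-binding proteins, nonclassical monocyte-like cells had 1 called higher and 2 called lower. Batf, which binds DNA together with IRF4 or IRF8, rose by 1.41 (SE 0.15, adjusted p = 0.0025 in edgeR). The IRF2-binding proteins Irf2bpl and Irf2bp2 fell by 0.72 (SE 0.15, adjusted p = 0.0254) and 0.68 (SE 0.17, adjusted p = 0.0487). Batf3, the partner of IRF8 in cDC1 cells, was the 1 of 16 called in classical monocyte-like cells, lower by 0.85 (SE 0.17, adjusted p = 0.0433). It is also a cDC1 naming marker, the 1 of 3 tested that was called lower in this class. The part of cDC1 transcripts in its value was not tested. None of 12 partners was called in neutrophil-like cells (4 at an unadjusted p under 0.05).

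For 3 members the genes with the most similar levels were listed, by Pearson's r of log2(CPM + 1) over 83 sums of class and library, which share libraries and classes and therefore carry no p. For Ikbke these were 4921511I17Rik (0.691), Madd (0.646), Tnip1 (0.633), Bcl2 (0.624) and the nonclassical marker Spn (0.619). For Irf7 they were Parp9 (0.745), Ifi27l2a (0.745), Irf9 (0.738), Bcl3 (0.732) and Palm (0.728). For Irf4 they were Gpr183 (0.801), Btla (0.8), Ero1lb (0.782), Got1 (0.751) and St6gal1 (0.749).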

How the data were processed

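The files hold UMI counts per gene and cell barcode for 6 libraries, which the authors deposited after Cell Ranger 7.0.0 on mm10, per the submitters' processing notes. Their other steps have no source used here. The members and the gene and marker lists were chosen with earlier results of these data known. The 71634 cells kept had 200 or more genes, 500 or more UMIs and less than 10% mitochondrial counts. Scrublet marked 2035 doublets, which were left out. Its own threshold failed in normal lung 3 and AML 3, and the median of the thresholds of the remaining libraries (0.2093) replaced it. Cells were clustered with scanpy 1.11.5 and leidenalg 0.10.2 (2000 variable genes without the members, 30 components, 15 neighbours, resolution 1) and clusters were named from 26 marker lists. A cluster stayed unnamed where its second type scored over 0.6 of its first.

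Counts were summed per library and class (at least 20 cells) and tested across all genes with edgeR 4.0.16 in R 4.3.3 (TMM, filterByExpr, quasi-likelihood F test, Benjamini-Hochberg at 0.05). A replicate is a library. pDC-like cells of normal lung 2, interstitial macrophage-like cells of normal lung 1 and mature DC-like cells of library 1 of both groups fell under 20 cells and were left out of those fits. Late neutrophil precursor-like cells had too few normal cells to be tested. Levels are CPM, each gene's UMIs scaled to all UMIs of the class, and log2 changes are edgeR's, AML over normal. The difference between classes is the class by group interaction with library as a block. DESeq2 1.42.0 was an alternative. The steps were tested on simulated data. All members are reported. From each pathway list, up to 8 called genes per class are named in order of p, and the 5 most similar genes are given for the 3 members with the smallest adjusted p.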

Additional observations from a re-analysis of the deposited data

Results flagged for a closer look

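For 12 pairs of member and class, the test of the difference itself found that the AML change in nonclassical monocyte-like cells was unlike that in another class. The shares of all genes called per comparison are given above. For Ikbke the change was larger in nonclassical monocyte-like cells by 2.31 on the log2 scale than in classical monocyte-like cells, by 4.12 than in B cell-like cells, by 4.10 than in T cell-like cells and by 3.54 than in type 17 lymphocyte-like cells. For Irf1 the difference was -0.68 against classical monocyte-like, -1.86 against alveolar macrophage-like, -1.70 against interstitial macrophage-like, -1.60 against cDC2-like and -1.09 against B cell-like cells. Against B cell-like cells it was also -1.76 for Irf4, -0.70 for Irf5 and -0.68 for Irf8.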

How the results depend on the processing

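The rise of Ikbke in nonclassical monocyte-like cells passed the threshold under all 13 alternatives (log2 change 3.38 to 3.92, adjusted p up to 0.0168). Over the 13 called member changes, 105 of 164 alternatives kept the call, 59 lost it and 0 reversed (29 of 78 kept when 1 library was left out, 76 of 86 otherwise). Over the 12 differences between classes, whose alternatives were chosen after seeing the data, 102 of 142 kept the call, 40 lost it and 0 reversed.

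Members called with cells named by their own markers numbered 2 (not 5) in nonclassical monocyte-like cells, 0 (not 2) in classical monocyte-like and 0 (not 2) in neutrophil-like cells. With DESeq2 there was 1 in each of alveolar macrophage-like, neutrophil-like, cDC1-like and endothelial cell-like cells, where Ikbke in neutrophil-like cells had no adjusted p. Without the low-count filter there were 2 in interstitial macrophage-like and 2 in cDC1-like cells and 1 each in cDC2-like, B cell-like and endothelial cell-like cells, and with doublets kept 1 in endothelial cell-like cells. Differences between classes numbered 20 with DESeq2, 24 without the filter and 3 with the marker naming (12 in the main fits). The shares over all genes in these settings, and without 1 library, are not given for these differences. Their counts cannot be read as a result about the members. Leaving out 1 library gave 1 to 6 members in nonclassical, 0 to 3 in classical monocyte-like, 0 to 2 in neutrophil-like, 0 to 1 in B cell-like and 0 to 1 in interstitial macrophage-like cells, 0 to 4 in whole libraries and 4 to 20 differences between classes. The cause of these shifts was not tested. Counts over all genes are given below for some settings, in nonclassical and classical monocyte-like cells, neutrophil-like cells and whole libraries only. Without the share over all genes, member counts in the other classes cannot be read as a result about the members. Without thinning, AML exceeded normal lung in the share of cells with an Ikbke UMI by 32.8 points in nonclassical (11.1 thinned) and 9.18 in classical monocyte-like cells (4.17), and the T cell-like difference was -13.7 (-1.70).

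With the replicate number as a block, 7 members (not 5) were called in nonclassical monocyte-like cells, 1 in endothelial cell-like cells and 1 (not 4) in whole libraries. The count over all genes with the block is given below for classical monocyte-like cells and whole libraries only, so the 7 cannot be set against it. Deviations of same-numbered libraries correlated at 0.21, -0.03 and 0.19 for numbers 1 to 3 in nonclassical monocyte-like cells. They correlated at 0.65, -0.14 and 0.64 in alveolar macrophage-like and 0.44, 0.11 and 0.65 in T cell-like cells. NK cell-like cells had 0.37, 0.02 and 0.45, and whole libraries 0.24, -0.12 and -0.05. All 3 pairs were above 0.1 in T cell-like cells alone. Median UMIs per barcode fell from library 1 to 3 in both groups. The labels give shared numbers only, so the main fits did not pair the samples, and what the shared deviations reflect was not tested.

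Counts over all genes moved too: 758 in nonclassical monocyte-like cells (344 by marker naming, 1165 DESeq2, 1769 without the filter, 131 to 1846 without 1 library), 221 in classical (573 DESeq2, 1215 without the filter, 365 with the block, 0 to 1089), 98 in neutrophil-like (1, 266 and 584; 6 to 298) and 1568 in whole libraries (3409 DESeq2, 98 with the block, 0 to 3192). Marker naming was not run for cDC2-like and type 17 lymphocyte-like cells or whole libraries. With 3 libraries a group and a shallow AML 3, small changes of low members such as Irf4 and Irf3 could not be resolved.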

Other observations

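Cells that entered no comparison within a class, and were counted only in the whole-library sums, also carried members. An unnamed cluster with neutrophil and nonclassical monocyte markers made up 0.112%, 1.11% and 11.4% of the cells in AML 1 to 3 and 0.228% to 0.797% in normal lung, and haemoglobin genes led it. Ikbke was 57.4 CPM in AML 2 (136 cells) and 52.7 in AML 3 (3959 cells) there, with no UMI in the 76 cells of normal lung 3. Irf7 was 162 and 82.6 in AML 2 and AML 3 and 69.4 in normal lung 3. A further class, late neutrophil precursor-like cells (0, 1 and 3 cells in normal lung 1 to 3), had Ikbke at 15.9, 9.43 and 25.5 CPM in AML 1 to 3.

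Spic, an ETS factor of red pulp macrophages, was a leading gene of the nonclassical cluster filled by AML 1 and AML 2. Nonclassical monocyte-like cells with a Spic UMI had Ikbke at 219, 138 and 125 CPM in AML 1 to 3 and those without at 164, 107 and 86.8. Cells with a Spic UMI were somewhat deeper (median 10956, 6116 and 1089 UMIs against 9791, 4748 and 862). In normal lung, cells without a Spic UMI had 7.64 to 11.3 CPM.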
